A study of Mus musculus with 10 samples.

Results

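The 9 Sox genes Sox2, Sox4, Sox5, Sox6, Sox8, Sox9, Sox10, Sox11 and Sox21 and the homeobox gene Prox1 were followed across 5 cell types of the mouse cochlea. These 10 members were taken by symbol from the count tables, which list 34590 genes, and a mouse Sox symbol was listed 18 times in all. Sox genes encode transcription factors that bind DNA through an HMG box and are sorted by sequence into groups. Sox2 of group B is needed to form the prosensory patch of the inner ear, and Sox21 of the same group acts mostly as a repressor. Sox9 and Sox10 of group E mark the early otic vesicle and persist in supporting cells (SCs), and Sox10 is also a factor of Schwann cells and melanocytes. Sox4 and Sox11 of group C act in progenitors and young neurons, while Sox5 and Sox6 of group D have no activation domain of their own and work with Sox9 in cartilage. Prox1 encodes a homeodomain factor that is known in lymphatic vessels and in Deiters' cells and pillar cells, the SCs that surround the outer hair cells.

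Bulk RNA-seq libraries were made from handpicked fluorescent cells, 10 in all, with 2 for each of 5 cell types. The SC libraries 11 and 12 (P26 and P27, age in postnatal days) came from mice with Fgfr3iCreER and a Rosa26 tdTomato reporter, so that the Fgfr3 gene set which Deiters' and pillar cells were labelled, and tamoxifen was given at P12 and P13. Converted hair cells (cHCs, libraries 13 and 16, P33) came from mice that carried in addition Atoh1-HA, driven by the CAG promoter after recombination, and alpha9 AChR-EGFP, a reporter of the hair cell gene Chrna9 by which these cells were picked, after the same tamoxifen course. Outer hair cells (OHCs) were taken at P7 (libraries 14 and 15) and at ages labelled 21 and 22 days (called OHC P22, libraries 21 and 22), both labelled prestin-YFP YFP/+, a knock-in that is driven by the OHC gene Slc26a5. For OHC P7 the study's supplement differs from this label. It gives a prestin CreER line with the Rosa26 tdTomato reporter and tamoxifen given before P7. Inner hair cells (IHCs, 74 and 75 days, libraries 74 and 75) carried Pval-Cre with the tdTomato reporter, and weaker reporter signal in OHCs of this line is known. Libraries 11 to 16 are named by their number in the labels and the other 4 by age. The titles of libraries 12, 13 and 15 hold a further sample number, which those of 11, 14 and 16 lack. This splits each of the SC, cHC and OHC P7 pairs, and the labels do not say what it stands for. The study calls the libraries of a cell type biological duplicates, and the labels give different ages within the SC, OHC P22 and IHC pairs. The titles put the letter m before the age in library 21 and in both IHC libraries, and f in library 22. These letters may stand for sex, which the titles do not spell out. How many animals or cells went into each library is not given by the labels. The study's supplement gives mean cell numbers per cell type, which were lowest for OHC P22 and highest for IHCs. In the main model the p-values rest on the spread within the duplicate pairs of all 5 cell types, including those outside a comparison.

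Counts on genes totalled 15016129 to 40518766 per library, and 3 counts, the limit that a count of 0 allows, were worth 0.0761 to 0.264 CPM (reads of a gene scaled to library size by TMM). Of the 10 sample records, 4 held the file of another sample, and each file was therefore assigned to its library by the study's own CPM table. With the files left as attached to the records, 0 of 16891 genes passed in any comparison by edgeR, with 590 to 2514 genes at an unadjusted p under 0.05, and every difference reported below lost its call. The labels number the SC, cHC and OHC P7 libraries in one series and the OHC P22 and IHC libraries in another, so that the series and the cell type cannot be told apart in a comparison across them. In material picked as pools of cells, fewer cells of a type and less RNA per cell cannot be told apart. Of 2 OHC and 2 IHC markers, Slc26a5 stood at 1060 to 3785 CPM in the 4 OHC libraries, and Slc17a8 at 1905 and 1761 CPM in IHCs. The other marker of each pair was less exclusive. Ocm, an OHC marker, was at 239 and 68.6 CPM in IHCs, against 3157 to 9268 CPM in OHCs. Otof, an IHC marker, was at 337 to 1144 CPM in OHCs, against 5005 and 4212 CPM in IHCs. The hair cell factor gene Pou4f3 was at 0.584 and 0.355 CPM in SCs, against 235 to 559 CPM in the hair cell libraries. Fgfr3 did not set SCs apart, since its 311 and 167 CPM there lay below both cHC libraries (458 and 431 CPM). The SC markers Gjb2 and Slc1a3, read below, were higher in IHCs than in SCs. Atoh1, whose counts may include the transgene, reached 363 and 1810 CPM in cHCs and at most 6.43 CPM elsewhere.

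In the annotation of the mm9 genome that the counts used (GENCODE vM1), all 10 members are protein-coding genes. Sox2 lies at chr3:34548927-34551383 on the plus strand and consists of 1 merged exon, and Sox9 at chr11:112643538-112649074 on the plus strand has 3. On the minus strand, Sox21 occupies chr14:118632454-118636252, Sox4 chr13:29040788-29045582 and Sox11 chr12:28025562-28027574, with 1 merged exon each. The larger minus-strand genes are Sox10 at chr15:78985343-78994920 with 4 exons, Sox8 at chr17:25702837-25707631 with 3, Prox1 at chr1:191945660-191994559 with 5, Sox6 at chr7:122614858-123182258 with 21 and Sox5 at chr6:143776945-144730497 with 25. The amplification kit does not keep strand, and exons of Sox4, Sox5, Sox21 and Prox1 overlap an antisense transcript by 2616, 1330, 713 and 133 bases, where reads of the 2 strands cannot be told apart. For Sox4, 2 gene entries of the same name overlap. The antisense Gm4675 at Sox21 held 957 counts in SC library 12 and 307 in IHC library 74, and at most 14 in the others.

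Promoter sequences from RefSeq (build GRCm38.p6, kept apart from the mm9 coordinates above) were present for 8 of the 10 members, all but Sox9 and Sox10. The 250 bases before the start are shown for Sox2 and Sox21, which were read from SCs and gave no count in OHC P22. They are also shown for the more upstream of 2 Prox1 starts, because Prox1 stood highest in both cHC libraries. The windows shown lie at chr3:34649745-34649994 (plus strand), chr14:118237031-118237280 (minus strand) and chr1:190170828-190171077 (minus strand). Capitals mark matches, on either strand, to the E-box motifs CAGCTG and CAGATG, the kind of site that Atoh1 binds, and to the SOX core motifs ACAAAG and ACAATG. No 2 of these motifs overlap here.
Sox2: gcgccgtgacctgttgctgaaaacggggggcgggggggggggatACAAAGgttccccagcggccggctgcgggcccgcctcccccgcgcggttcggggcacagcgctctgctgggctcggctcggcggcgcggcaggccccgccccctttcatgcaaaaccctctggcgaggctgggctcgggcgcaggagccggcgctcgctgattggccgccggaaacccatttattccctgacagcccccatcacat
Sox21: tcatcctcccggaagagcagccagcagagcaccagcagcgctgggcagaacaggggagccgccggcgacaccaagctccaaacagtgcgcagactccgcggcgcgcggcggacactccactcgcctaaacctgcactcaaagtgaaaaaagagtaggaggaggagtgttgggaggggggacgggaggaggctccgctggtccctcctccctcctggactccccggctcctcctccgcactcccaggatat
Prox1: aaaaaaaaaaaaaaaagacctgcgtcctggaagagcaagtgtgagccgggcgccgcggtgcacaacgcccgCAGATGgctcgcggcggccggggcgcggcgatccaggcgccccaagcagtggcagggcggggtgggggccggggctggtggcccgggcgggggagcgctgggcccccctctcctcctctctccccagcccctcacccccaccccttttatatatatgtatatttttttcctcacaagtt
Sox2 held ACAAAG once, starting 206 bases before its start, Prox1 held CAGATG once, 179 bases before, and Sox21 held none of the 4 motifs in this window. The window of the other Prox1 start, not shown, held ACAAAG once, 174 bases before that start, and neither E-box motif. Of 32851 promoters of this length, 25.5% held at least 1 of the E-box motifs and 25.2% at least 1 of the SOX core motifs. The windows of Sox2 and Sox21 were rich in G and C, with 72% and 65.2% GC and 27 and 17 CpG dinucleotides against medians of 52.4% and 6 over all promoters. Prox1 had 64.8% GC and 20 CpG in its window.

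Sox9 had the highest level per kb of exon among the Sox members in both SC libraries and was lower in OHCs of both ages. The 2 SC libraries held 242 and 402 CPM (322 ± 113, mean ± SD, n = 2), cHCs 126 and 16.0, OHC P7 5.64 and 2.62, OHC P22 1.23 and 0.0841, and IHCs 95.9 and 64.4. The SC libraries were thus above all others, the cHC range took in both IHC values, and the OHC P22 libraries lay below every other one. In an edgeR quasi-likelihood test over all 16891 genes, with the Benjamini-Hochberg adjusted p given as FDR, Sox9 differed among the 5 cell types (FDR = 0.0104). Against SCs it was lower in OHC P22 by a log2 fold change of -9.02 ± 1.51 (SE, FDR = 0.00465) and in OHC P7 by -6.28 ± 1.32 (FDR = 0.0258), each in 4 of 4 pairs of libraries. The OHC P22 call was kept in all 10 fits that left out 1 library. The OHC P7 call had an FDR of 0.0554 without library 14 and 0.106 without library 15, and in a fit of libraries 11 to 16 alone it stood at -6.27 ± 1.14 (FDR = 0.0326).

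In cHCs the Sox9 difference from SCs was -2.18 ± 1.09 (FDR = 0.375), and -2.11 ± 0.946 (FDR = 0.319) within libraries 11 to 16, with both cHC libraries below both SC libraries. The study's method, limma-voom, gave -2.99 and an adjusted p of 0.0366 for the same difference. OHC P22 lay below cHCs by -6.85 ± 1.38 (FDR = 0.0238), a call kept in all 10 fits without 1 library but at an adjusted p of 0.109 with limma-voom. IHCs held more Sox9 than OHC P22, by 7.02 ± 1.39 (FDR = 0.0345). This call was lost without library 22 (FDR = 0.0601), within the OHC P22 and IHC libraries (FDR = 0.121) and with limma-voom (adjusted p = 0.104). Between IHCs and cHCs the difference was 0.17 ± 1.05 (FDR = 0.979), and between IHCs and SCs -2.0 ± 1.09 (FDR = 0.356), neither of which passed, although both IHC libraries lay below both SC libraries.

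Sox10 was likewise highest in SCs and lowest in OHC P22. Its values were 148 and 190 CPM in SCs (169 ± 29.5, n = 2), 56.9 and 5.66 in cHCs, 10.9 and 0.402 in OHC P7, 0.0881 and 0.126 in OHC P22, and 69.2 and 99.6 in IHCs. Both IHC libraries exceeded both cHC libraries, and the OHC P7 range took in cHC library 16. The OHC P22 values rest on 1 and 3 counts, and the ratio of pooled counts in SCs to those in OHC P22 was 1441 (exact 95% interval 563 to 5289, counting error only). This difference passed (FDR = 0.00721) and kept its call in all 10 fits without 1 library. Against cHCs the pooled ratio was 218 (85.1 to 802, FDR = 0.0327), and the call was lost without cHC library 13 (FDR = 0.0671), OHC library 21 (FDR = 0.163) or OHC library 22 (FDR = 0.0938) and with limma-voom (adjusted p = 0.0894).

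IHCs exceeded OHC P22 in Sox10 by a pooled ratio of 741 (289 to 2720, FDR = 0.034), and within the OHC P22 and IHC libraries the FDR was 0.0245. Without library 21 or 22 it was 0.174 or 0.0842. Sox10 in IHCs was -1.0 ± 1.25 relative to SCs on the log2 scale (FDR = 0.720) and 1.43 ± 1.26 relative to cHCs (FDR = 0.691). In cHCs it was -2.44 ± 1.30 relative to SCs (FDR = 0.403, within libraries 11 to 16 -2.37 ± 1.47 with an FDR of 0.467), where limma-voom gave -3.51 and an adjusted p of 0.0463. The ratio of Sox10 to Sox9 in CPM was 0.614 and 0.473 in SCs, 0.451 and 0.353 in cHCs, and 0.722 and 1.55 in IHCs. In the libraries with less of both genes it was 1.93 and 0.154 in OHC P7 and 0.0714 and 1.5 in OHC P22. The highest ratio of the 10 was in OHC P7 library 14. The OHC P22 ratios rest on 1 and 3 counts of Sox10 against 14 and 2 of Sox9, too few to rank. That of OHC P7 library 15 rests on 6 counts against 39.

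Sox8, the remaining group E gene, was at the limit of detection. It gave 7 counts in IHC library 75 (0.24 CPM), 1 count in OHC library 22 and 0 in the other 8 libraries, and it did not pass the filter on low counts, so it was not tested. The other 9 members were tested.

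**Figure D1:**
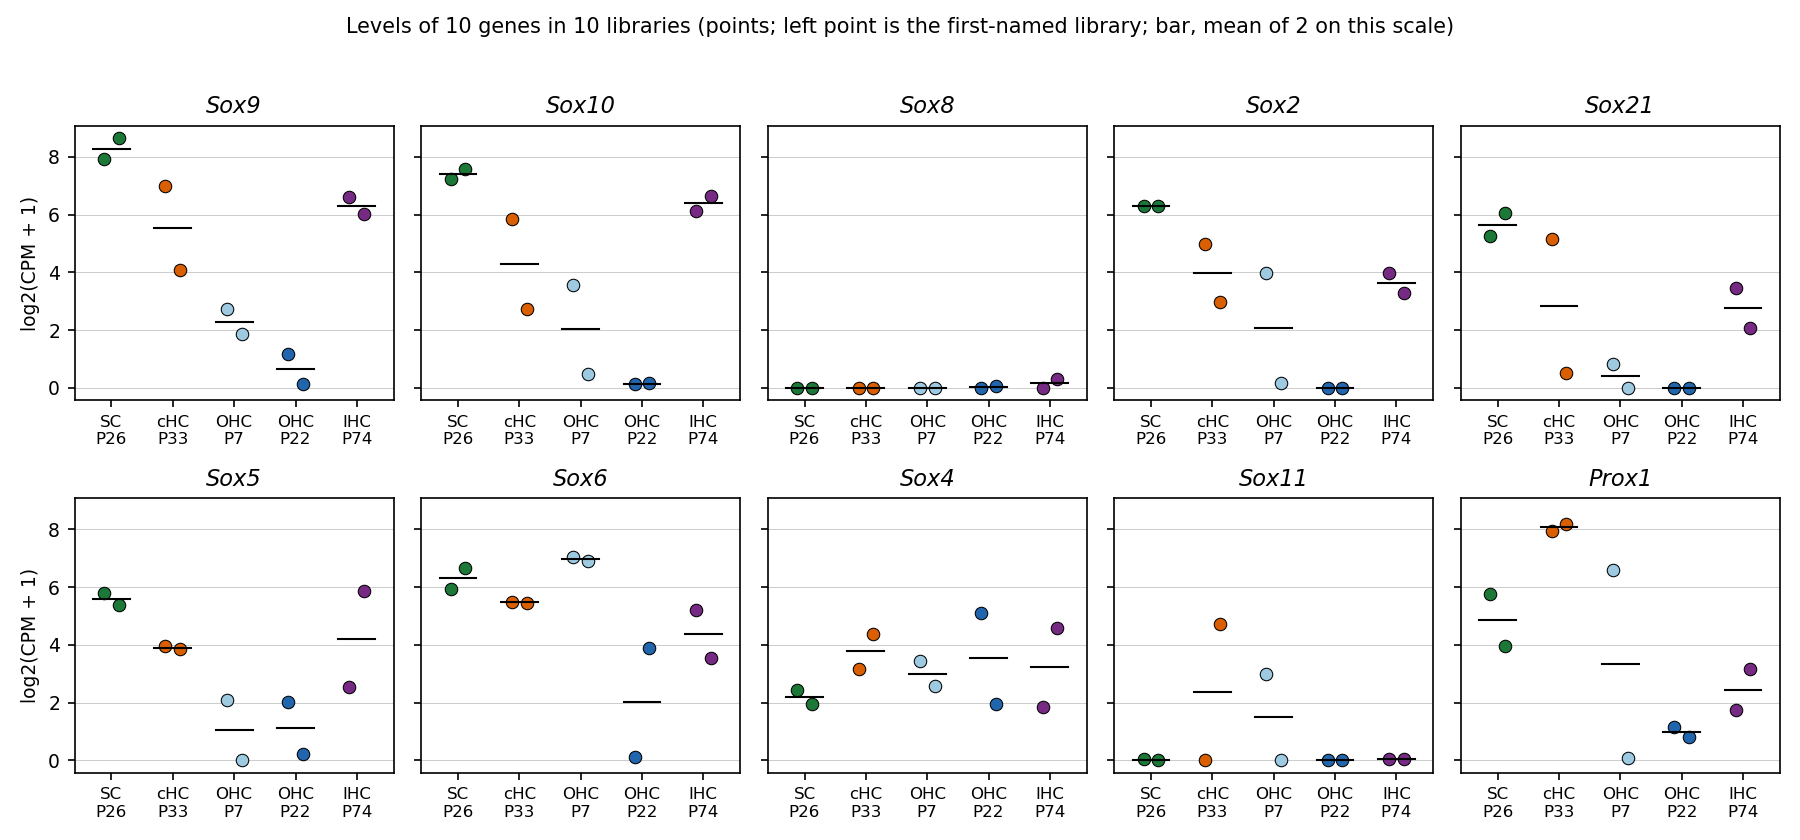
Level of each member in each library as log2(CPM + 1), one panel per gene, with 2 points per cell type and a bar at their mean. Sox9, Sox10, Sox2 and Sox21 were highest in the SC libraries (green) and near 0 in OHC P22 (dark blue), Sox6 was high in both OHC P7 libraries, and Prox1 was highest in both cHC libraries (orange) at 247 and 293 CPM.

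The group B genes had no read at all in OHC P22. Sox2 stood at 77.1 and 77.4 CPM in SCs, 30.9 and 6.93 in cHCs, 14.9 and 0.134 in OHC P7, 0 and 0 in OHC P22, and 14.6 and 8.79 in IHCs. SCs were above all other libraries and the cHC, OHC P7 and IHC ranges overlapped. Against the floor of 3 counts per library (0.195 CPM on average for OHC P22), Sox2 was at least 396-fold lower in OHC P22 than in SCs (FDR = 0.0179). The FDR was 0.064 without library 21 and 0.0566 without library 22. Against cHCs it was at least 96.9-fold lower in OHC P22, with an FDR of 0.053 in edgeR and an adjusted p of 0.0299 in limma-voom. Sox2 in cHCs was -2.03 ± 1.61 relative to SCs (FDR = 0.602), and in IHCs -2.72 ± 1.66 (FDR = 0.411).

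Sox21 stood at 37.1 and 65.1 CPM in SCs, 34.5 and 0.431 in cHCs, 0.79 and 0 in OHC P7, 0 and 0 in OHC P22, and 10.1 and 3.19 in IHCs. The cHC library 13 was close to SC library 11, while cHC library 16 fell below both IHC libraries. OHC P22 was at least 262-fold lower than SCs (FDR = 0.0433). This call was lost without SC library 12 (FDR = 0.065), OHC library 21 (FDR = 0.138) or OHC library 22 (FDR = 0.109), and without both IHC libraries (FDR = 0.055). OHC P7 was -6.94 ± 2.46 relative to SCs (FDR = 0.173), and limma-voom gave an adjusted p of 0.0408. Sox2ot, the long noncoding transcript in whose span Sox2 lies, stood at 61.2 and 17.6 CPM in SCs, 23.6 and 2.77 in cHCs, 0.0273 and 0.0671 in OHC P7, 0.352 and 2.69 in OHC P22, and 7.20 and 5.32 in IHCs. Sox2ot was lower in OHC P7 than in SCs (FDR = 0.0381), a call lost without library 11 (FDR = 0.117), 14 (FDR = 0.2) or 15 (FDR = 0.162).

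Sox5 and Sox6, the group D pair, did not share one pattern. Sox5 stood at 54.3 and 41.0 CPM in SCs, 14.4 and 13.4 in cHCs, 3.27 and 0 in OHC P7, 3.08 and 0.168 in OHC P22, and 4.81 and 57.1 in IHCs. The 2 cHC libraries were nearly alike, and the 2 IHC libraries lay on either side of them, library 75 above both SC libraries. Sox5 in OHC P22 was -4.89 ± 2.15 relative to SCs (FDR = 0.182) and in OHC P7 -4.84 ± 2.13 (FDR = 0.253). Sox6 stood at 60.6 and 102 CPM in SCs, 43.9 and 42.7 in cHCs, 132 and 119 in OHC P7, 0.0881 and 13.8 in OHC P22, and 36.2 and 10.6 in IHCs. Both OHC P7 libraries were thus above every other library for Sox6, whereas for Sox9, Sox10 and Sox21 they lay below both SC libraries. The fold change of OHC P22 against OHC P7 was -4.16 ± 1.49 (FDR = 0.267), and without library 22 the FDR was 0.016. Against SCs Sox6 was 0.63 ± 1.31 in OHC P7 (FDR = 0.858) and -3.53 ± 1.44 in OHC P22 (FDR = 0.157, or 0.00409 without library 22).

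Sox4 and Sox11 of group C were low in SCs. Sox4 stood at 4.38 and 2.88 CPM in SCs, 8.03 and 19.8 in cHCs, 9.87 and 4.90 in OHC P7, 33.5 and 2.90 in OHC P22, and 2.62 and 22.9 in IHCs. The ranges of the 4 hair cell types overlapped one another, and the joint FDR over the 5 cell types was 0.792. Both cHC libraries and both OHC P7 libraries lay above both SC libraries, with log2 fold changes of 1.94 ± 1.60 (FDR = 0.615) and 1.02 ± 1.56 (FDR = 0.784). Sox11 was read in 2 libraries, at 25.3 CPM (998 counts) in cHC library 16 and 6.89 CPM (253 counts) in OHC P7 library 14. In each of the other 8 libraries it gave 1 count or 0, including the second library of both cell types. Its joint FDR was 0.197.

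Prox1, unlike each of the Sox members, stood highest in both cHC libraries. It stood at 53.7 and 14.7 CPM in SCs, 247 and 293 in cHCs (270 ± 32.8, n = 2), 95.6 and 0.0671 in OHC P7, 1.23 and 0.757 in OHC P22, and 2.32 and 7.86 in IHCs. Both cHC libraries were above every other library, and both OHC P22 and both IHC libraries were below both SC libraries. The cHC value against SCs was 2.98 ± 1.73 (FDR = 0.438), and 3.07 ± 1.94 (FDR = 0.477) within libraries 11 to 16, with 4 of 4 pairs in that direction. OHC P22 was -8.09 ± 2.21 relative to cHCs (FDR = 0.0764) and -5.11 ± 1.94 relative to SCs (FDR = 0.132). IHCs were -5.73 ± 1.97 relative to cHCs (FDR = 0.289).

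The OHC P7 libraries differed from each other in Prox1 by 9.40 on a log2 CPM scale, a wider gap than in 99.9% of the tested genes. This pair decided several Prox1 values. Without library 14 the fold change of OHC P7 against SCs went from 0.49 ± 1.61 (FDR = 0.927) to -8.93 (FDR = 0.0146), and that against cHCs went from -2.49 ± 1.7 (FDR = 0.615) to -12.0 (FDR = 0.0263). Without library 15 the OHC P22 value against cHCs reached an FDR of 0.00136, that against SCs 0.00537 and that of IHCs against cHCs 0.01. The OHC P22 value against cHCs passed in 6 of the 10 fits without 1 library. No Prox1 difference passed in edgeR with all 10 libraries.

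Counts of members and of list genes are also given below for fits without 1 library. The number of all genes called moved between these fits as well, so such shifts are not particular to the genes counted. Counted over the members, the most calls fell between SCs and OHC P22. In that comparison 4 of 9 tested members passed, all lower in OHC P22 (Sox9, Sox10, Sox2 and Sox21), where 8.02% of the 16891 genes tested passed in either direction. Limma-voom also called 4 members, beside 11.2% of genes, and DESeq2 8, beside 24.6%. The 8 include Sox11, which had 1 count in SCs and 0 in OHC P22. Of OHC P7 against SCs, 1 of 9 passed (Sox9, lower) against a background of 3.41%, with 2 calls by limma-voom beside 6.94% and 4 by DESeq2 beside 15.9%. The count for OHC P22 against SCs was 2 without library 21 and 3 without library 22, and that for OHC P7 against SCs was 0 without library 15 and 2 without library 13, 14 or 16. For cHCs against SCs the count was 0 of 9 in edgeR, where 1.84% of genes passed. At an unadjusted p under 0.05 stood 1 member and 2532 of the 16891 genes. The other tools gave 2 calls with limma-voom beside 6.31% of genes and 1 with DESeq2 beside 10.5%. For IHCs against SCs the count was 0 of 9 in edgeR, where 2.65% of genes passed. At an unadjusted p under 0.05 stood 0 members and 2941 of the 16891 genes. Limma-voom and DESeq2 called 0 members here, and 6.23% and 13.6% of genes.

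Against cHCs, OHC P22 had 2 of 9 members passing, both lower (Sox9 and Sox10), beside 3.18% of genes, with a count of 1 without library 13 or 21, 4 without library 11, 12, 16, 74 or 75, and 5 without library 14 or 15. Limma-voom called 1 of 9 beside 5.51% of genes and DESeq2 6 beside 16.1%. OHC P7 against cHCs gave 0 of 9 in edgeR beside 0.343% of genes, with 2 at an unadjusted p under 0.05 and 1 call without library 14. Over all 16891 genes, 1884 stood under that unadjusted p in the main fit. The member counts were 0 with limma-voom (2.24% of genes) and 2 with DESeq2 (6.65%). IHCs against cHCs gave 0 of 9 in edgeR beside 0.924% of genes, with 1 at an unadjusted p under 0.05 and 1 call without library 14 or 15, and 0 with limma-voom (4.37% of genes) and 1 with DESeq2 (8.16%). Within the hair cells, OHC P22 against OHC P7 gave 0 of 9 in edgeR beside 0.551% of genes, with 5 at an unadjusted p under 0.05, and 3 calls without library 15 and 1 without library 22. Over all 16891 genes, 2161 stood under that unadjusted p for IHCs against cHCs and 2340 for OHC P22 against OHC P7. For the latter, limma-voom called 0 of 9 beside 0.651% of genes and DESeq2 5 beside 9.66%. IHCs against OHC P22 gave 2 of 9 (Sox9 and Sox10, both higher in IHCs) beside 1.46% of genes, and 1 without library 21 or 22 or 3 without library 13, 14, 15 or 16, with 1 call by limma-voom (1.77% of genes) and 5 by DESeq2 (12% of genes). The 5 called by DESeq2 there include Sox11, which had 2 counts in IHCs and 0 in OHC P22. The joint test over the 5 cell types gave 2 of 9 (Sox9 and Sox10) beside 7.81% of genes. It gave 5 with limma-voom beside 13.5% or DESeq2 beside 26%. Its count was 1 without library 21, 3 without library 74, 4 without library 13, 15, 16 or 75, and 5 without library 14.

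The median log2 fold change of the tested members was -5.11 for OHC P22 against SCs and 0 over all genes, or -6.57 over 8 members with Sox2 and Sox21 set at their bounds and Sox11 left out. The corresponding medians of the members were -3.35 for OHC P7, -1.55 for cHCs and -1.79 for IHCs against SCs, where the median over all genes was at most 0.0294. These comparisons share the 2 SC libraries. Sox4 was the member with a positive fold change against SCs in each of the 4 hair cell types, and it passed in none. Without library 21 its value in OHC P22 was -0.39, and without library 75 its value in IHCs was -0.47.

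**Figure D2:**
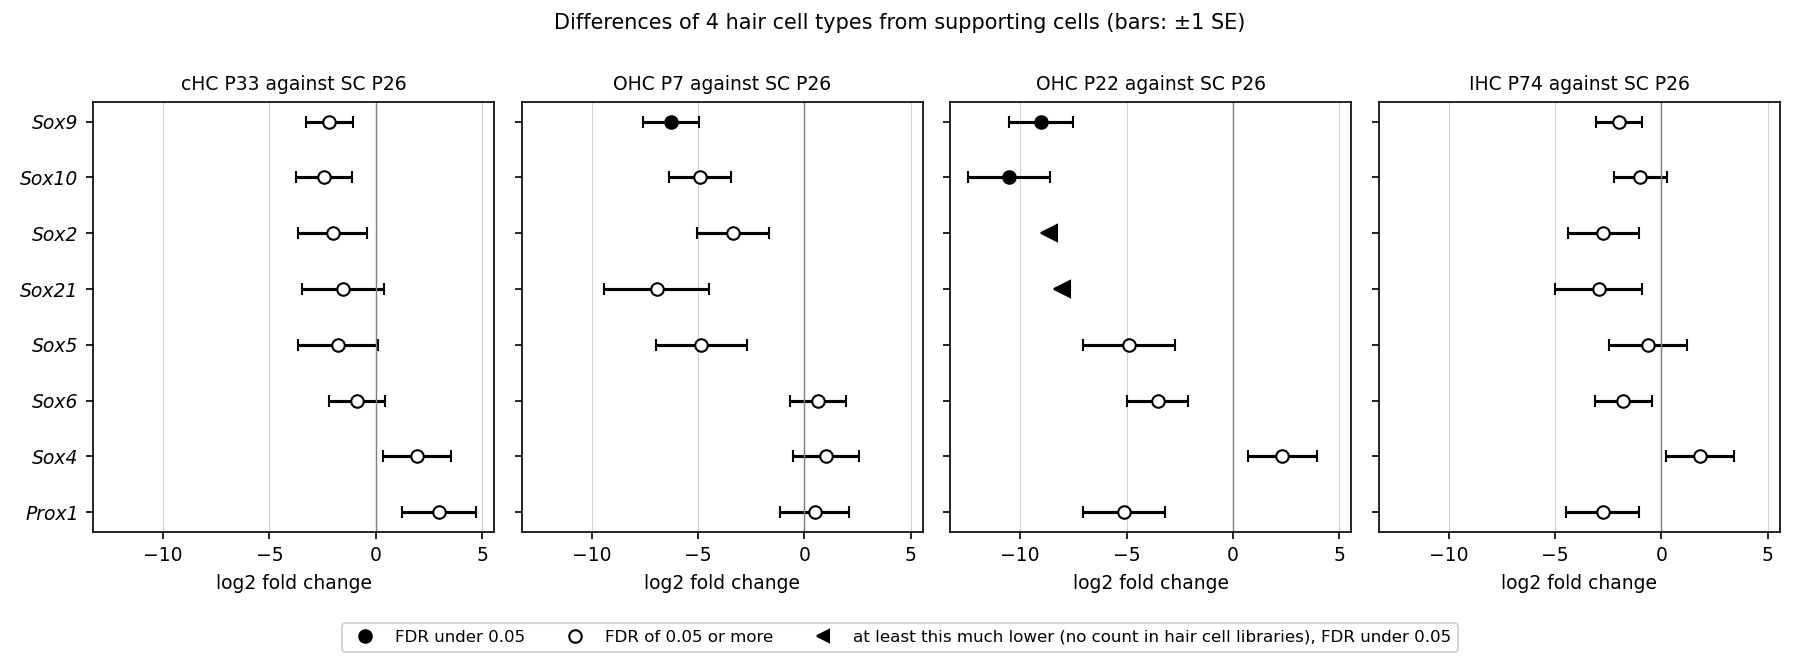
Log2 fold change of 8 members in each hair cell type against SCs, with bars of 1 SE, filled symbols for an FDR under 0.05 and triangles where the hair cell libraries held no count and the value is a bound. Filled symbols appear for Sox9 in OHC P7 and for Sox9, Sox10, Sox2 and Sox21 in OHC P22, and Sox4 lies to the right of 0 in all 4 panels.

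Per kilobase of exon, which allows genes to be compared within a library, the 9 Sox genes summed to 166 and 231 CPM per kb in SCs, 80.7 and 31.4 in cHCs, 32.3 and 15.3 in OHC P7, 7.53 and 2.26 in OHC P22, and 62.3 and 66.7 in IHCs. Group E made up 68.2% and 72.5% of that sum in SCs, 63.7% in cHC library 13 and 78.2% and 78.5% in IHCs. It made up 19.0% in cHC library 16, 16.7% and 5.10% in OHC P7, and 4.39% and 3.55% in OHC P22. Levels of group E thus made up most of the Sox sum in the SC and IHC libraries and in 1 of the 2 cHC libraries, and under 20% in each of the other 5 libraries.

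Group D took the larger share in OHC P7, at 46.9% and 87.9%, nearly all of it Sox6. In cHC library 16 the largest share was that of group C, at 53.3%, of which Sox11 gave 40.1% and Sox4 13.2%. The OHC P22 libraries differed in kind, since Sox4 gave 92.6% of a sum of 7.53 in library 21 and Sox6 gave 69.2% of a sum of 2.26 in library 22. Prox1 stood at 59.7 and 70.9 CPM per kb in cHCs, next to 30.5 and 3.87 for Sox9 in the same libraries. In SCs the order was the other way round, with 13 and 3.55 CPM per kb for Prox1 and 58.4 and 97.2 for Sox9.

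**Figure D3:**
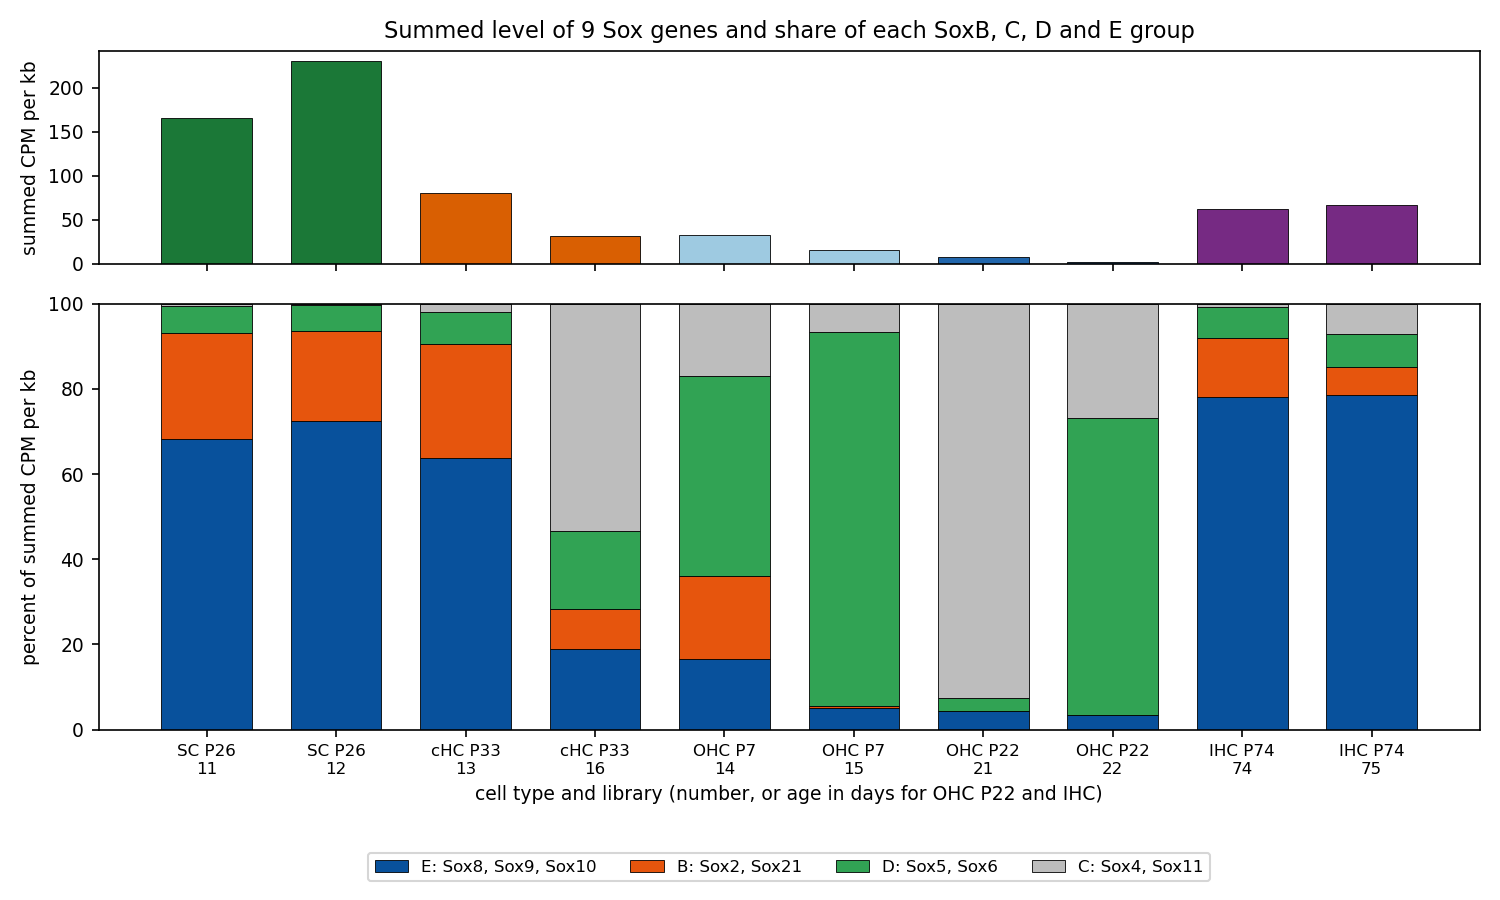
Summed level of the 9 Sox genes in CPM per kb of exon (top) and the share of groups B, C, D and E in that sum (bottom), one bar per library. Group E made up over 60% in the 2 SC libraries, cHC library 13 and the 2 IHC libraries, group D led in both OHC P7 libraries, and the sum was smallest in OHC P22.

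The 2 cHC libraries kept different amounts of the SC pattern. As a percentage of the SC mean, library 13 held 39.2% of Sox9, 33.6% of Sox10, 40.0% of Sox2 and 67.6% of Sox21. Library 16 held 4.98%, 3.34%, 8.97% and 0.845% of the same genes. All 4 were thus lower in library 16. On a log2 CPM scale the gap between these libraries was 2.97 for Sox9, 3.31 for Sox10, 2.14 for Sox2 and 6.10 for Sox21, against a median gap of 1.03 over all tested genes. Sox11 differed the other way by 8.41, more than in 99.8% of genes. Prox1, Sox5 and Sox6 were nearly the same in both libraries, with gaps of 0.25, 0.10 and 0.04.

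Markers of SCs were read beside this difference from a list of 10 genes (Fgfr3, Gjb2, Gjb6, Slc1a3, Jag1, Hes1, Hey2, Cdkn1b, Ednrb and Lfng). Their summed level was 2155 and 1382 CPM in SCs, 1005 in cHC library 13 and 654 in cHC library 16, and 1 of the 10, Ednrb, was at 0 in both cHC libraries. Gjb2, a gap junction gene of SCs, was at 83.3 and 1.73 CPM in libraries 13 and 16, and Slc1a3, a glutamate transporter gene, at 77.9 and 0.33. Gjb6, Hey2 and Cdkn1b were likewise lower in library 16, at 38.0 and 4.44, 92.1 and 16.0, and 121 and 57.5 CPM. Jag1 (80.8 and 60.3 CPM), Hes1 (12.7 and 9.74) and Fgfr3, the gene that drives the Cre (458 and 431), differed less, and Lfng, a modifier of Notch, was higher in library 16 (42.3 and 73.5 CPM). The 6 mesenchyme markers summed to 196 and 16.3 CPM in libraries 13 and 16, of which Lum gave 178 and 6.60. The 10 hair cell markers summed to 4916 and 6645 CPM and Atoh1, whose counts may include the transgene, stood at 363 and 1810. The part of other cells in the level of the Sox genes in library 13 was not tested.

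In the other hair cell types the SC marker sum was 287 and 111 CPM in OHC P7, 20.1 and 10.1 in OHC P22, and 1157 and 909 in IHCs. Of the 10 markers, 1 was at 0 in each OHC P7 library, 2 in library 21, 0 in library 22, 0 in library 74 and 1 in library 75. The IHC libraries, in which Sox9 and Sox10 were high, thus also held SC markers, with Gjb2 at 611 and 468 CPM against 393 and 124 in SCs and Slc1a3 at 243 and 193 against 129 and 76.5. Hey2, a Notch effector, was at 11.3 and 8.89 CPM in IHCs against 134 and 197 in SCs, and Fgfr3 at 17.3 and 0. Ednrb was at 70.7 and 24.9 CPM in IHCs and at 0 and 0.0887 in SCs. The part of these markers in the Sox levels of IHCs was not tested.

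**Figure D4:**
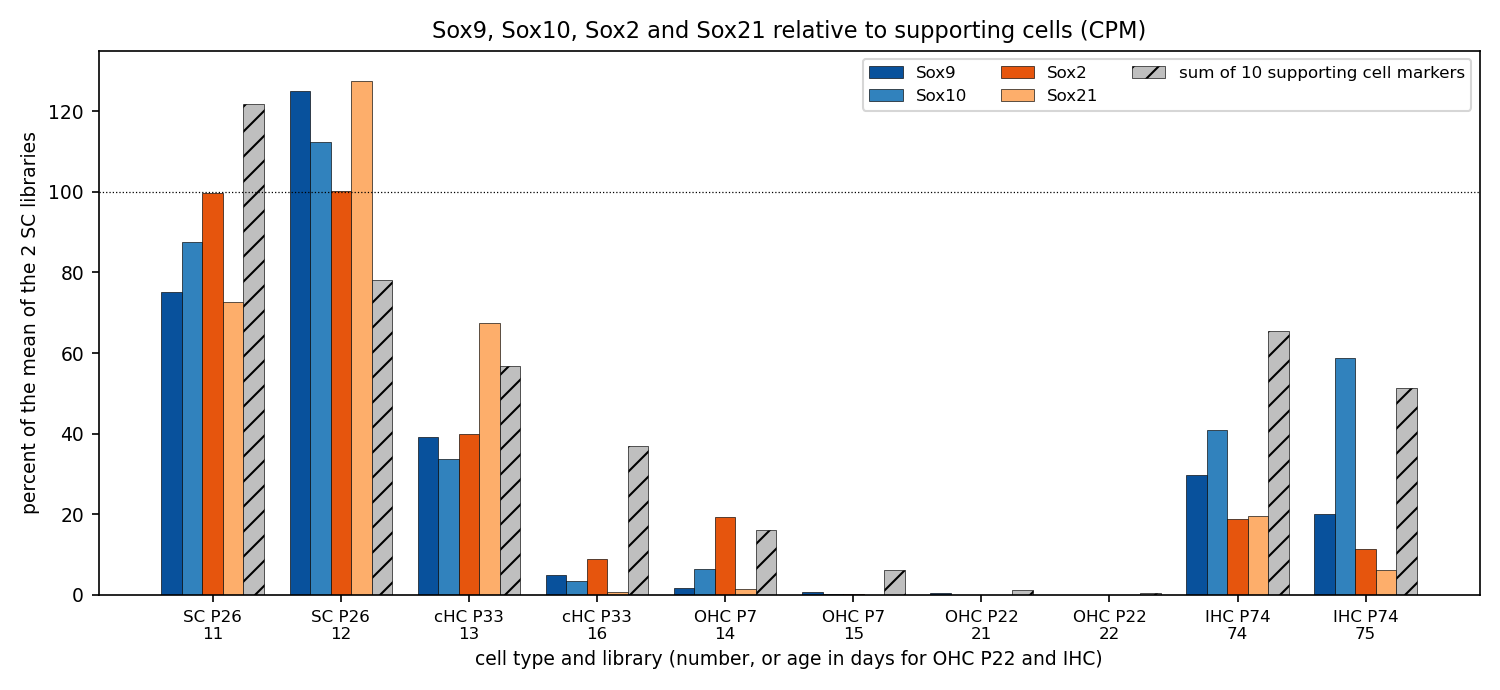
Sox9, Sox10, Sox2 and Sox21 in each library as a percentage of their mean in the 2 SC libraries, beside the summed level of 10 SC markers on the same scale (hatched). In cHC library 16 the 4 genes stood at 0.845% to 8.97% and the marker sum at 37.0%, of which Fgfr3 made up the most, while Gjb2, Slc1a3, Hes1 and Hey2 stood at 0.668%, 0.321%, 7.01% and 9.67% of their SC means, and in the OHC P22 libraries all bars were at 1.14% or less.

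Sox10 is also a gene of Schwann cells and melanocytes, and their markers were read beside it. The 10 Schwann cell and glia markers summed to 350 and 381 CPM in SCs, 160 and 69.8 in cHCs, 65.3 and 47.4 in OHC P7, 147 and 32.6 in OHC P22, and 116 and 312 in IHCs, with 1 to 4 of the 10 at 0 in each library. Most of the SC sum came from Mal, at 216 and 159 CPM, and Erbb3, at 63.4 and 186. Egr2, a Schwann cell factor gene, ranged from 0.0444 CPM in SC library 12 to 102 CPM in IHC library 75. Mag was at most 0.0887 CPM and Foxd3 at most 0.0671 CPM. The part of such cells in the level of Sox10 was not tested. Of 5 melanocyte markers, Dct, Tyrp1 and Mlana were at 0 in all 10 libraries, and Pmel was at 67.1 CPM in SC library 12.

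Other markers bore on single libraries. The 8 spiral ganglion neuron markers summed to 0.212 and 1.29 CPM in SCs and to 80.6 to 542 in the hair cell libraries, chiefly through the neurofilament genes Nefl, Nefm and Nefh, and the 6 immune markers to at most 15.8 CPM. The 6 mesenchyme markers summed to 811 and 705 CPM in SCs, mostly Lum at 715 and 683, and to 405 in OHC P7 library 15, where Col1a2 was at 223 CPM. The 2 OHC markers, Slc26a5 and Ocm, summed to 102 and 25.3 CPM in cHCs and the 2 IHC markers, Slc17a8 and Otof, to 281 and 161. In IHCs the OHC markers summed to 240 and 69.4 CPM, and in the OHC libraries the IHC markers summed to 390 to 1170 CPM.

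Of 10 further Sox genes, 9 were listed and 2 passed the filter. Sox12 of group C was at 0.0265 and 0 CPM in SCs, 4.0 and 18.5 in cHCs, 19.1 and 11.9 in OHC P7, 4.58 and 14.6 in OHC P22, and 16.9 and 22.8 in IHCs. It was higher in all 4 hair cell types than in SCs, with an FDR of 0.0493, 0.0285, 0.0214 and 0.0295 in this order. These calls rest on both SC libraries, since all 4 were lost without library 11 (FDR 0.0705 to 0.16) or library 12 (FDR 0.103 to 0.233). The cHC call was also lost without library 16, 14, 15, 74 or 75, the OHC P7 call without library 14 and the IHC call without library 74 or 75. Sox13 of group D was at 76.4 and 51.4 CPM in SCs, 34.4 and 1.93 in cHCs, 22.5 and 0.268 in OHC P7, 0 and 0.505 in OHC P22, and 82.2 and 39.7 in IHCs, and it passed in none of the comparisons in edgeR with all 10 libraries. For OHC P22 against SCs its FDR was 0.0641 in edgeR, with an adjusted p of 0.0301 in limma-voom and 3.62e-05 in DESeq2, and it passed without library 13, 14, 15, 16, 74 or 75. DESeq2 also called Sox13 lower in OHC P22 than in cHCs, OHC P7 and IHCs. Both SC and both IHC libraries held more Sox13 than any other library. Sox3, Sox14, Sox15 and Sox30 were at 0 in every library, and Sox7, Sox17 and Sox18 at 0.0887 CPM or less.

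Genes that act beside Sox2 and Sox9 in the prosensory patch and in SCs were read as a list of 17, of which 15 were tested and 5 are also among the SC markers. Of the 15, 9 were lower in OHC P22 than in SCs, beside 8.02% of all genes called in either direction, among them Id1 (-9.95 ± 1.20, FDR = 0.000694) and Id3, inhibitors of helix-loop-helix factors, Jag1, a Notch ligand (-8.48 ± 1.21, FDR = 0.00191), and Hey1, a Notch effector. These 9 calls were kept in each of the 10 fits without 1 library. Against cHCs, 9 of 15 were lower in OHC P22 (3.18% of all genes called), led by Id1, Hey2, Notch1 and Jag1, and the count was 3 without library 21 and 5 with limma-voom (5.51% of genes). In OHC P7 5 of 15 were lower than in SCs (3.41% of all genes called), including Id1, Hey1, Hes1 and Id3, with 3 without library 12, 14 or 15, 8 without library 21 and 9 with DESeq2 (15.9% of genes). Of the calls named, Hes1 was lost without library 11 or 14, and Id3 without library 12, 14 or 15. In cHCs the count against SCs was 0 of 15 in edgeR, beside 1.84% of all genes, with 6 at an unadjusted p under 0.05 and 1 call without library 13, 74 or 75. Over all 16891 genes, 2532 had an unadjusted p under 0.05 in the main fit. Limma-voom called 4 partners (6.31% of genes) and DESeq2 4 (10.5%).

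In IHCs 6 of these 15 partners were higher than in OHC P22, including Id1, Id3, Notch1 and Jag1, beside 1.46% of all genes, and the count was 1 without library 21, 1 with limma-voom (1.77% of genes) and 10 with DESeq2 (12%). In edgeR the cell cycle inhibitor gene Cdkn1b was the 1 partner lower in IHCs than in SCs (FDR = 0.0406), a call lost without library 11, 12, 74 or 75, while 4 partners passed without library 21 or 22. The share of all genes here was 2.65%, and limma-voom and DESeq2 each called 5 of 15, beside 6.23% and 13.6% of genes. OHC P7 against cHCs gave 1 of 15 (Id1, lower), lost without library 14 or 15, beside 0.343% of all genes, with 1 call by limma-voom (2.24% of genes) and 6 by DESeq2 (6.65%). OHC P22 against OHC P7 gave 1 of 15 (Jag1, lower), lost without library 14 or 21, beside 0.551%, with 0 calls by limma-voom (0.651%) and 7 by DESeq2 (9.66%). IHCs against cHCs gave 0 of 15 in edgeR beside 0.924%, with 3 at an unadjusted p under 0.05 (2161 of all 16891 genes). Limma-voom gave 1 call there (4.37%) and DESeq2 2 (8.16%). The otic genes Gata3 and Eya1 did not share the near absence of Sox9 from OHC P22, since Gata3 stood at 331 and 209 CPM and Eya1 at 241 and 90.5 in its libraries.

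The cartilage matrix genes that Sox9 controls together with Sox5 and Sox6 were read as a list of 8, with 7 tested. Col2a1, the type II collagen gene, was at 1.30 and 22.6 CPM in SCs, 6.33 and 0.33 in cHCs, 256 and 516 in OHC P7, 0 and 0 in OHC P22, and 0.0336 and 0.275 in IHCs. The OHC P7 libraries, with 5.64 and 2.62 CPM of Sox9, thus held the most Col2a1. Col2a1 was lower in OHC P22 than in SCs (FDR = 0.0316) and than in OHC P7 (FDR = 0.0461), calls that were lost without library 21 (FDR = 0.0995 and 0.151) or 22 (FDR = 0.0923 and 0.0682), the first also without library 12 (FDR = 0.0657). Col9a3 was at 67.9 and 371 CPM in SCs and at 0.264 and 1.09 in OHC P22 (-8.27 ± 1.84, FDR = 0.0198), a call lost without library 21 (FDR = 0.102). Limma-voom gave an adjusted p of 0.0773 for Col2a1 and 0.102 for Col9a3 between OHC P22 and SCs, so that 2 of 7 matrix genes were called there in edgeR (8.02% of all genes), 0 in limma-voom (11.2%) and 5 in DESeq2 (24.6%). The Col2a1 difference of OHC P22 from OHC P7, the 1 call of 7 there (0.551% of all genes), had an adjusted p of 0.0214 in limma-voom, and DESeq2 called 5 (9.66%). In edgeR 0 of the 7 passed between cHCs and SCs (1.84% of all genes), with 0 at an unadjusted p under 0.05 (2532 of 16891 genes). Limma-voom and DESeq2 gave 0 calls there. Between OHC P7 and SCs 0 passed (3.41% of all genes), with 2 at an unadjusted p under 0.05 (3194 of 16891 genes). Each of the other tools gave 2 calls (6.94% of genes with limma-voom and 15.9% with DESeq2). Between IHCs and SCs 0 passed (2.65% of all genes), with 2 at an unadjusted p under 0.05 (2941 of 16891 genes). Limma-voom gave 0 calls there (6.23%) and DESeq2 2 (13.6%). Among 6 noncoding neighbours sought, 2 were listed under those symbols, Sox2ot and 2610035D17Rik, the latter a transcript known by its clone name that stood at 0.637 and 0 CPM in SCs and 20.6 and 10.3 in OHC P22. It had no call in edgeR (FDR = 0.150 for OHC P22 against SCs), where limma-voom gave an adjusted p of 0.0378 and DESeq2 0.00217.

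Over the 10 libraries, the members of groups B and E moved together. The Pearson correlation of log2 CPM was 0.95 between Sox9 and Sox10, 0.96 between Sox2 and Sox10 and 0.94 between Sox9 and Sox21, and these values describe 10 libraries that share 5 cell types and are not independent. Sox5 had 0.78 to 0.82 with each of these 4 genes (0.79 with Sox2, 0.81 with Sox9), and 0.02 with Sox6, its group D partner. Prox1 had 0.73 with Sox2, 0.70 with Sox5 and 0.53 with Sox9. Among 11864 genes with a mean of at least 10 CPM in a cell type, those most like Sox9 were Tmsb10 (0.98), Wls (0.98) and Tspan12 (0.97). Most like Sox10 were Kcnj16, a potassium channel gene (0.99), Aim1 (0.99) and Nalcn (0.98), and most like Sox2 were Sept9 (0.99), Aim1 (0.98) and Gdpd5 (0.98). Kcnj16 also stood among the 3 genes most like Sox21 (0.97), with Ank2 (0.97) and Mpzl2 (0.97). For Prox1 the highest values were lower, at 0.92 for Srgap3, 0.91 for 2310058D17Rik and 0.91 for Itpr3. For Sox6 they were Snx6 (0.98), Trappc1 (0.97) and Smc6 (0.97), and for Sox5 Map2k1 (0.97), Slc41a1 (0.96) and Gna13 (0.94). Sox4 was most like Dnajc12 (0.89), Xpo5 (0.87) and Zfp41 (0.85), and Sox11 most like Pkd2l1 (0.94), Tcf15 (0.91) and 4933415A04Rik (0.90).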

How the data were processed

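Total RNA of handpicked cells was amplified with SPIA and sequenced as paired-end reads on an Illumina instrument. Per the labels and the study's methods, the authors used CASAVA 1.7 for base calls, STAR together with BWA for alignment to mm9 and HTSeq for counting. The deposited values are raw read counts per gene. Rows for unassigned reads were left out (reads on no feature were 26.5% to 50.4% of the count of all reads). The OHC P22 libraries 21 and 22 had the largest shares of such reads, at 46.1% and 50.4%. Library 21 also had the fewest genes with a count (14332) and the most unaligned reads (25.5%). Its TMM factor was 0.583, against 0.93 to 1.2 in the other libraries. The part of these traits in the low levels of OHC P22 was not tested. Files were assigned to libraries by their agreement with the study's CPM table. Here counts were tested with edgeR 4.0.16 (R 4.3.3) after TMM scaling and filterByExpr, in one quasi-likelihood model of all 10 libraries, which left 16891 genes, with Benjamini-Hochberg adjustment and a threshold of 0.05. Each SE is the fold change divided by the root of F. CPM per kb used merged exon lengths. Exact intervals are conditional binomial (95%). Correlations used log2 CPM with a prior count of 2. Alternatives were DESeq2 1.42.0, limma-voom (limma 3.58.1), no filter, files as attached, each library left out, fits within a library number series and, added after seeing the data, a fit without both IHC libraries. Scripts were tested on simulated data. The members and the gene lists (other Sox genes, prosensory partners, matrix genes, noncoding neighbours and cell type markers) were chosen with earlier results of these data known. All 10 members were named, with up to 4 called genes of smallest p from a list and the 3 most correlated genes. Other genes, such as Gata3, Eya1, Sox13 and single markers, were named after their values were seen, and some genes of the lists are not reported here by name. Intervals and floors cover counting error only, since amplified reads are not independent molecules.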

Additional observations from a re-analysis of the deposited data

How the results depend on the processing

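The replicate check is 2 libraries per cell type, so each member's value rests on few cells' amplified RNA, and 3 counts per library was the smallest amount that could be told from 0. Over 13 fold changes of members that passed in edgeR or limma-voom, 199 refits left 157 on the same side of the threshold, 27 lost their call, 15 gained one and 0 turned in direction. Counts of members past the threshold are given in the order cHCs, OHC P7 and OHC P22 against SCs, OHC P7, OHC P22 and IHCs against cHCs, OHC P22 against OHC P7, IHCs against OHC P22, and the joint test. They were 1, 4, 8, 2, 6, 1, 5, 5 and 5 with DESeq2, which called 10.5%, 15.9%, 24.6%, 6.65%, 16.1%, 8.16%, 9.66%, 12% and 26% of all genes, and 1, 3, 7, 1, 5, 1, 5, 4 and 8 with no filter on low counts, where 4.07%, 6.42%, 10.8%, 2.38%, 6.79%, 2.87%, 3.6%, 4.94% and 17.4% of 23415 genes passed. With limma-voom the counts that moved were 2 for cHCs and 2 for OHC P7 against SCs, 1 for OHC P22 against cHCs, 1 for IHCs against OHC P22 and 5 for the joint test, beside 6.31%, 6.94%, 5.51%, 1.77% and 13.5% of all genes. With files as attached to the records, 0 members passed in the comparisons where edgeR had called any (OHC P7 and OHC P22 against SCs, OHC P22 against cHCs, IHCs against OHC P22, joint). Within the OHC P22 and IHC libraries the count for IHCs against OHC P22 was 1. The DESeq2 counts for OHC P22 against SCs and for IHCs against OHC P22 include Sox11, on 1 and 2 counts against 0. As single libraries were left out the counts ran from 0 to 0 (cHCs and IHCs against SCs), 0 to 2 (OHC P7 against SCs), 2 to 5 (OHC P22 against SCs), 0 to 1 (OHC P7 and IHCs against cHCs), 1 to 5 (OHC P22 against cHCs), 0 to 3 (OHC P22 against OHC P7), 1 to 3 (IHCs against OHC P22) and 1 to 5 (joint), where a cell type left with 1 library was taken to vary like the others. The number of all genes called moved between these fits as well. Over all genes, cHCs against SCs gave 311 calls in edgeR, 1771 with DESeq2, 1065 with limma-voom and 952 of 23415 genes with no filter. The fit without both IHC libraries moved no count of members past 1.5 times. The cause of these shifts was not tested. No paired analysis was run, since no replicate number is shared between the cell types. The split of libraries 11 to 16 by the form of their titles was not modelled, and its part in the gaps within pairs was not tested.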
